A study of Homo sapiens with 48 samples.

Results

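H1975 cells given 2 mg/mL CKI together with 75 µM gefitinib for 24 h were compared with H1975 cells left untreated for 24 h. The pair of agents is represented by 3 libraries and the untreated state by 3, of 48 libraries in all, and both were chosen by the treatment in their labels. H1975 cells come from a human non-small cell lung tumour and carry an activating and a resistance mutation in EGFR. Gefitinib inhibits the EGFR kinase, and CKI is compound kushen injection, a plant extract. The labels name no vehicle for the untreated cells, and all groups grew in RPMI-1640 medium with serum. The same CKI dose alone and the same gefitinib dose alone, 3 libraries each at 24 h, served as further reference groups. The labels call the 3 libraries of a group biological replicates and give no further detail. The p-values rest on the spread between libraries within groups, estimated over all 48 libraries in 16 groups. The table gave raw counts for each gene symbol, with totals of 19370502 to 21939741 per library for the pair, 17002920 to 24509285 for CKI alone, 16806799 to 17780867 for gefitinib alone and 16447592 to 21608613 for untreated cells. Levels are given as CPM, the usual scaling of a gene's counts to the library total, with TMM factors applied to that total, and 3 counts in a library correspond to 0.137 to 0.155 CPM in the pair and 0.139 to 0.182 CPM in untreated cells, covering counting error only.

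EGFR signals through the RAS and ERK kinase cascade to immediate early genes, cyclin D and the E2F factors, which start the genes of DNA replication, and later the MYB-MuvB and FOXM1 complexes start those of mitosis. ERK also induces its own inhibitors, the DUSP phosphatases and the Sprouty proteins, so their transcripts are read as a gauge of its output. Cells under stress raise other programs: HSF1 induces cytosolic chaperones when proteins unfold, ATF4 and CHOP follow when translation factor eIF2 is phosphorylated, and SREBP2 raises the enzymes of cholesterol synthesis when sterols are short.

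Transcripts that come with serum albumin were set apart from the results. ALB, the gene of serum albumin, had 3030, 2581 and 3312 counts in the pair against 1, 2 and 0 counts in untreated cells. Together with 7 libraries of other groups the pair made a set of 10 libraries with over 1000 ALB counts, and in the other 38 libraries ALB had at most 8. Genes whose lowest CPM in the 10 lay above their highest CPM in the 38 numbered 90, of which 33 are on a list of 47 liver markers and the rest are not. Together with the other measured liver markers the genes set apart came to 98. The 90, summed, took 347 to 389 CPM in the pair and 6.81 to 8.25 CPM in untreated cells. Of these 98 genes 93 were called higher in the pair than in untreated cells and 2 lower. For the 90 the rule fixed this direction. All pair libraries are among the 10 and all untreated ones among the 38. The 98 genes are named no further and left out of every gene list. The libraries of 2.5 mg/mL YFSJ, a preparation named in the labels by these letters only, all belong to the 10 ALB libraries, so levels there are given beside those of genes typical of other tissues. The mitochondrial ribosomal RNA gene RNR2 took 1.39% to 1.56% of counts in the pair, 0.919% to 1.16% with CKI alone, 0.674% to 0.886% with gefitinib alone and 0.464% to 0.582% in untreated cells, and its part in the results was not tested. The catalogue number in the labels is that of a breast line, so a few markers are given. The lung lineage factor NKX2-1 had 37.9 to 44.7 CPM in the pair and 57.4 to 72.9 CPM in untreated cells. The estrogen receptor gene ESR1 reached at most 0.225 CPM in these 6 libraries and PGR was at 0 in all of them. The lung gene SFTPC reached at most 0.129 CPM. Of 20 lung epithelium markers 8 averaged at least 1 CPM in the pair and 6 in untreated cells. Of 15 luminal breast markers 8 and 6 did. Summed, the lung markers took 205.7 to 240.8 CPM in the pair and the luminal breast markers 2325 to 2425 CPM. The luminal list is not specific to breast: its keratin KRT18 is also on the epithelial list, and FOXA1 is also on the lung list. The source of the cells was not tested further.

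The pair changed most of the measured transcriptome. Of 15789 genes tested, 9802 were called at an adjusted p under 0.05 in edgeR's quasi-likelihood test, or 62.1%, with 4674 higher (29.6%) and 5128 lower (32.5%). Without the genes set apart the calls numbered 9707. Large rises outnumbered large falls: without the genes set apart, 1839 were at least 2-fold higher and 1045 at least 2-fold lower, and 202 were at least 8-fold higher and 3 at least 8-fold lower. With them these counts were 1931, 1045, 289 and 3. No minimum level was set for these counts, so they include genes near 0 CPM in untreated cells. HBA1, which was not set apart, is among the rises of at least 8-fold, with 0 CPM in untreated cells. How much such genes add to the excess of rises was not tested. The 3 pair libraries and the 3 untreated libraries did not overlap in CPM for 10477 genes (66.4%), of which 9386 were called. The median log2 fold change of all genes was -0.03. Scaled by library totals alone this median moved by 0.14 to 0.11, and the calls split into 5684 higher and 3924 lower, so directions of small changes depend on the scaling. In bulk RNA, fewer cells of a kind and less RNA per cell cannot be told apart, and every level is a share of the library. With 62.1% of all genes called, a list with about that share called stands near the background. All fold changes below are log2 values ± SE from this fit, with n = 3 libraries per group, and all adjusted p-values are over the 15789 genes tested.

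Among genes that averaged 5 CPM or more in either group, the largest rise was that of HSPA6, an inducible HSP70 chaperone that unstressed cells hardly express. It had 782, 642 and 646 CPM in the pair against 1.67, 2.71 and 2.22 CPM in untreated cells, and rose by 8.31 ± 0.18 (adjusted p = 1.19e-34). The next largest rises took in a synaptic immediate early gene, a neurotrophin receptor, growth arrest genes and stress factors. ARC, an activity-regulated immediate early gene, had 64.9, 58.6 and 60.9 CPM in the pair against 0.833, 1.35 and 1.36 CPM in untreated cells and rose by 5.71 ± 0.18. ATF3, a stress-induced transcription factor, had 209, 171 and 187 CPM in the pair against 7.99, 7.73 and 7.27 CPM in untreated cells and rose by 4.62 ± 0.16 (adjusted p = 3.49e-26). GDF15, a secreted stress cytokine of the TGF-beta family, had 337, 358 and 363 CPM in the pair against 11.6, 17.3 and 14.7 CPM in untreated cells and rose by 4.61 ± 0.24. In all 4 genes every pair library lay far above every untreated one, and absence of overlap was part of the rule that named them. NGFR, the p75 neurotrophin receptor, rose by 5.49 ± 0.29, GADD45G, a stress-induced growth arrest gene, by 5.13 ± 0.26, and RND1, a small GTPase, by 4.84 ± 0.22.

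Several of the largest rises were of genes known from other cell types, at low levels. NPC1L1, the cholesterol importer of intestine and liver, had 4.37, 4.98 and 7.08 CPM in the pair against 0.0980, 0.258 and 0.0543 CPM in untreated cells. SIGLEC1, a macrophage lectin, had 4.73, 5.89 and 8.15 CPM in the pair against 0.294, 0.193 and 0.163 CPM in untreated cells, and GZMM, a granzyme of cytotoxic lymphocytes, had 5.41, 8.35 and 10.9 CPM in the pair against 0.392, 0.193 and 0.271 CPM in untreated cells. All 3 genes were higher in every pair library than in any untreated one, which the naming rule required, with fold changes of 5.34, 4.79 and 4.78. In the YFSJ libraries, which hold ALB too, NPC1L1 had 0.243, 0.270 and 0.0830 CPM, SIGLEC1 0.437, 0.135 and 0.498 CPM and GZMM 0.0972, 0.270 and 0.0415 CPM, each below every pair library. ASIC4, an acid-sensing ion channel family member, had 3.96, 6.54 and 7.52 CPM in the pair against 0.196, 0.258 and 0 CPM in untreated cells. It rose by 5.29 ± 0.54, over an untreated level near that of 3 counts. DLL4, a Notch ligand, had 6.85, 6.09 and 5.82 CPM in the pair against 0.0490, 0 and 0 CPM in untreated cells, and no fold is given because the untreated libraries held a single count between them. Of 7 measured blood cell markers 1 was called, HBA1, at 0.495 to 0.895 CPM in the pair and 0 CPM in untreated cells, a gene named after its values were seen.

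**Figure D1:**
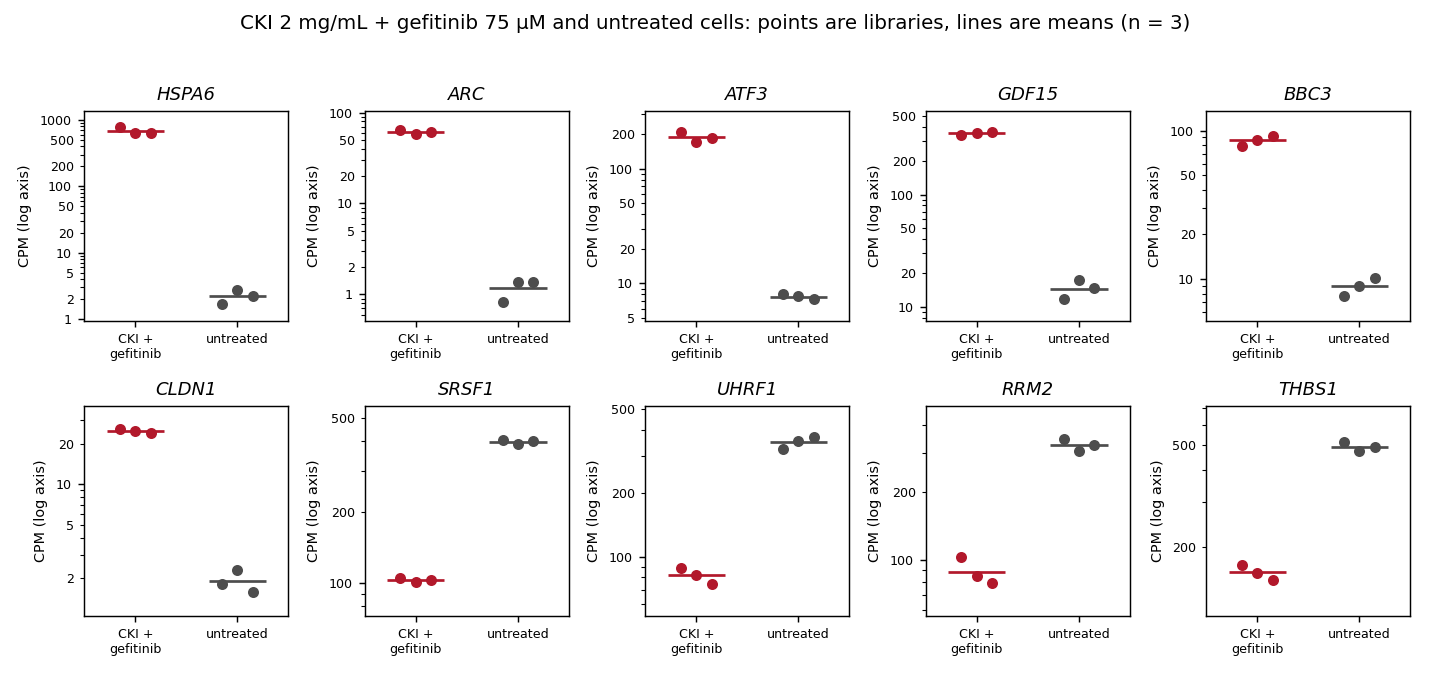
Level of 10 genes in CPM (log axis) in each library of the pair (left) and of untreated cells (right), with group means as lines. The 3 pair libraries lie apart from the 3 untreated ones in every panel, which the rule that named HSPA6, ARC, ATF3, GDF15, SRSF1 and UHRF1 required. HSPA6 is at 782, 642 and 646 CPM with the pair and 1.67, 2.71 and 2.22 CPM without treatment, while SRSF1 is at 105, 101.4 and 103 CPM with the pair and 404, 389 and 401 CPM without.

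The largest falls were smaller than the largest rises and mixed cell cycle genes with others. MANCR, a long noncoding RNA, had 1.17, 1.06 and 1.12 CPM in the pair against 7.60, 6.44 and 6.78 CPM in untreated cells and fell by 2.63 ± 0.21. SRSF1, a splicing factor that binds exonic enhancers, fell to 105, 101.4 and 103 CPM in the pair, against 404, 389 and 401 CPM in untreated cells, a change of -1.95 ± 0.08 (adjusted p = 5.27e-23). UHRF1, which recruits the maintenance DNA methyltransferase to replicated DNA, fell to 89.0, 82.3 and 74.2 CPM in the pair, against 324, 356 and 368 CPM in untreated cells, a change of -2.09 ± 0.10 (adjusted p = 4.91e-21). FAM111B, a protease-domain gene, changed by -2.13, SPC25, a kinetochore subunit, by -2.09, TNS4, a tensin of focal adhesions, by -2.05, and TENM2, a teneurin adhesion receptor, by -2.03. DIO2, a thyroid hormone deiodinase, changed by -2.02, the sulfotransferase gene CHST4 by -2.13, NKILA, a long noncoding RNA that restrains NF-kappaB, by -1.95, FAM198B by -2.04 (by -1.29 against the YFSJ libraries) and HPDL by -1.95. The absence of overlap between the groups was part of the rule that named these genes.

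Genes of DNA replication were lower in the pair almost without exception. Of 42 members measured, 0 were higher and 41 lower, with a median of -1.08, beside 32.5% of all genes lower and a median of -0.03. The nucleotide supply enzymes fell as a group of 6. RRM2, the S-phase subunit of ribonucleotide reductase, had 103, 84.5 and 79.0 CPM in the pair against 347, 308 and 325 CPM in untreated cells and changed by -1.88 ± 0.11 (adjusted p = 1.93e-18). Its partner RRM1 changed by -1.10, TYMS, which makes thymidylate, by -1.65, DUT, which clears dUTP, by -1.22, and the salvage kinase TK1 by -0.76. Among helicase and origin licensing genes 17 of 18 were lower. MCM3, a subunit of the replicative helicase, had 62.4, 60.9 and 63.9 CPM in the pair against 199, 191 and 201 CPM in untreated cells. The polymerase alpha subunits POLA1 and POLA2 changed by -1.80 and -1.67, and all 18 genes of polymerases, clamp and maturation were lower. CDC6, which loads the helicase at origins, did not pass, with 90.0, 88.2 and 89.1 CPM in the pair against 109, 94.3 and 102 CPM in untreated cells.

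The genes of mitosis and of recombination repair were lower too. Of 47 mitosis genes 46 were lower and 0 higher, with a median of -1.22. TOP2A, the topoisomerase that untangles chromosomes, had 152, 128 and 119.7 CPM in the pair against 454, 406 and 377 CPM in untreated cells and changed by -1.63 ± 0.11 (adjusted p = 1.29e-16). CCNB1, the cyclin of mitotic entry, had 159.8, 138 and 138 CPM in the pair against 356, 328 and 358 CPM in untreated cells. The condensin subunit NCAPH changed by -1.18 and the spindle kinesin KIF20A by -1.54. All 19 spindle and kinetochore genes were lower, with a median of -1.52. FOXM1, a transcription factor of mitotic genes, did not pass, with 79.1, 86.6 and 85.4 CPM in the pair against 91.9, 91.2 and 89.0 CPM in untreated cells. All 23 recombination and Fanconi repair genes were lower, with changes of -1.94 for the recombination gene XRCC2, of -1.76 for the helicase BRIP1, and, for FANCD2 and FANCI, which clamp crosslinked DNA, of -1.67 and -1.53. The smallest fall was that of EME1, a nuclease subunit, at -0.32 ± 0.13 (adjusted p = 0.0263), which no longer passed without pair library 1 or 2 or untreated library 1 or 3.

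Single regulators of entry into S phase moved in both directions. CDKN1A, the p21 inhibitor of cyclin-dependent kinases, had 174, 179 and 186 CPM in the pair against 43.2, 38.7 and 43.4 CPM in untreated cells and rose by 2.10 ± 0.08 (adjusted p = 1.04e-24). CDKN2D, the p19 inhibitor of CDK4 and CDK6, had 83.1, 88.1 and 95.5 CPM in the pair against 14.3, 17.2 and 18.2 CPM in untreated cells and rose by 2.42 ± 0.12 (adjusted p = 8.31e-22). CCNE2, a cyclin that activates CDK2, changed by -1.67 (by -1.05 against the YFSJ libraries), CDK2 by -0.90 and CDK4 by -0.69. Of 17 G1 cyclins, kinases and inhibitors, 6 were higher and 6 lower, with a median of -0.01. Among all genes 29.6% were higher and 32.5% lower, with a median of -0.03, so this split stands near the background. Among 13 E2F and DP factors 2 were higher and 8 lower: E2F7, an atypical repressor of E2F targets, rose by 1.34 ± 0.12 while its relative E2F8 changed by -1.66, the activator E2F2 by -1.81, the partner TFDP1 by -0.81 and the pocket protein RBL1 by -1.36.

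Upstream sequences of members of these programs are shown because the members that moved together have known factors that bind near the start: HSF1 for the inducible chaperones, ATF4 and CHOP for the stress response, E2F for replication and NF-Y for mitosis. Sequences are from RefSeq on GRCh38.p14, upstream of the gene's start in that table, written 5′ to 3′ on the gene's strand and ending at the base before the start. The capitals mark matches on either strand to GAANNTTC in the first 3 genes, to TGATGNAA in CHAC1 and ATF3, to GGCGGGAA or GGCGCGAA in MCM3 and UHRF1, and to CCAAT in TOP2A.
HSPA6, chr1:161524290-161524539, plus strand: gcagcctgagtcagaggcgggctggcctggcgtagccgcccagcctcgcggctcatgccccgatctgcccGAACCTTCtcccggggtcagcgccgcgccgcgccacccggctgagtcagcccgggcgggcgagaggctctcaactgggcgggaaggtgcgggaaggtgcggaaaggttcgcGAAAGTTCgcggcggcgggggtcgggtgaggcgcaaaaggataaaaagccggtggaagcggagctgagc
HSPA1A, chr6:31815393-31815542, plus strand: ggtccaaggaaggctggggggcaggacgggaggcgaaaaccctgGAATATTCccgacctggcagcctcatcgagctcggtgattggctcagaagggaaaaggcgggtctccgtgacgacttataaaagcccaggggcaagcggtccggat
HSPB8, chr12:119178781-119178930, plus strand: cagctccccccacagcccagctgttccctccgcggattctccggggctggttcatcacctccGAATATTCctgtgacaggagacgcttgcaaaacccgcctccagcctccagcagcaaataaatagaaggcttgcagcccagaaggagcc
CHAC1, chr15:40953221-40953470, plus strand: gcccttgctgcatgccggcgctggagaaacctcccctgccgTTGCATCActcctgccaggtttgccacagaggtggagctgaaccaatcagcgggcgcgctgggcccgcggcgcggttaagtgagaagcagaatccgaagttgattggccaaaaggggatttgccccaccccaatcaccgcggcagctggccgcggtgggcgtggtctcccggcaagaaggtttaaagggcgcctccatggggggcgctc
ATF3, chr1:212565157-212565406, plus strand: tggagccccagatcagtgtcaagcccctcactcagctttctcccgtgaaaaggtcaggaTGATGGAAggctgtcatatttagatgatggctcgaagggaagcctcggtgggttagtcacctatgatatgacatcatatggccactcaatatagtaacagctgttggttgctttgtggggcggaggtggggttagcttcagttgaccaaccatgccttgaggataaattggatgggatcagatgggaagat
MCM3, chr6:52284743-52284942, minus strand: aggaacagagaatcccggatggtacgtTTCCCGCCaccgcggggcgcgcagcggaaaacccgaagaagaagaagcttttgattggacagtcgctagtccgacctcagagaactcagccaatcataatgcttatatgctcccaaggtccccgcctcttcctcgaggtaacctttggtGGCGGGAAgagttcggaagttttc
UHRF1, chr19:4909351-4909500, plus strand: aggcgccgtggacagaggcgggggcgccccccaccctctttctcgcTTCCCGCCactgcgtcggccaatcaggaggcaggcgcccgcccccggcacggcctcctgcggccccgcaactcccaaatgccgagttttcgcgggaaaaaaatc
TOP2A, chr17:40417897-40418146, minus strand: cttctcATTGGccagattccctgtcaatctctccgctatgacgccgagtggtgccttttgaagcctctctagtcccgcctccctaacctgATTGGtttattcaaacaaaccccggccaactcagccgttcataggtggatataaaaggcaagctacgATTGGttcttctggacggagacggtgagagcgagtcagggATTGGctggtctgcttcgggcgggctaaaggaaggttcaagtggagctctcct

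Promoters were matched by symbol for 11626 of the 15789 genes (73.6%), and 250 bases before the start were searched. Only the first start listed for each symbol was used, so other starts of a gene, ATF3 included, were not searched. The heat shock letters stood in 9 of 25 chaperone promoters (36%) and in 4.09% of all promoters matched. In HSPA6, the largest riser, they begin 180 and 69 bases before the start. The E2F letters stood in 12 of 36 replication promoters (33.3%) and in 5.63% of all, and in MCM3 they begin 173 and 24 bases before the start. CCAAT stood in 28 of 41 mitosis promoters (68.3%) and in 34.3% of all, with 4 matches in TOP2A. The letters TTTGAA or TTCGAA of the cell cycle homology region stood in 21 of the same 41 (51.2%) and in 9.72% of all. The ATF4 letters stood in 3 of the 23 stress response promoters matched (13%), CHAC1 and ATF3 among them, and in 1.53% of all. Both strands were searched, and the E2F and cell cycle letters end in GAA, so they can overlap the start of a heat shock match. A match describes letters only, and since the lists hold known targets of these factors, a share above that of all promoters is no separate result.

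Cytosolic chaperones and their mitochondrial partners were split. Of 28 measured, 15 were higher and 8 lower, with a median of 0.28, beside 29.6% of all genes higher and 32.5% lower. Besides HSPA6 the risers were led by other stress-inducible members. HSPA1A, the main inducible HSP70, had 79.8, 64.0 and 68.8 CPM in the pair against 14.3, 15.4 and 17.2 CPM in untreated cells and rose by 2.18 ± 0.14 (adjusted p = 1.14e-17), though its counts are uncertain because HSPA1B is a near-identical copy. HSPB8, a small heat shock protein of selective autophagy, had 111, 116 and 112 CPM in the pair against 27.3, 25.4 and 27.1 CPM in untreated cells and rose by 2.08 ± 0.07. The HSP40 co-chaperones DNAJB1 and DNAJB2 rose by 1.69 ± 0.11 and 1.99 ± 0.11. HSPE1, the mitochondrial co-chaperonin, went the other way, with 9.86, 10.9 and 11.6 CPM in the pair against 21.7, 27.3 and 30.5 CPM in untreated cells, a change of -1.29, or -0.66 against the YFSJ libraries. The summed level of the HSP70 and HSP90 genes was 4930 to 5987 CPM in the pair and 6533 to 7571 CPM in untreated cells.

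The ATF4 and CHOP stress response was raised. Of 32 members measured, 27 were higher and 1 lower, with a median of 1.38, beside 29.6% of all genes higher. PPP1R15A, also called GADD34, which directs the phosphatase of eIF2, had 856, 840.5 and 885 CPM in the pair against 84.9, 98.1 and 99.8 CPM in untreated cells and rose by 3.19 ± 0.15 (adjusted p = 5.11e-22). SESN2, a leucine sensor that restrains mTORC1, had 112, 121 and 125 CPM in the pair against 13.4, 12.6 and 16.6 CPM in untreated cells and rose by 3.07 ± 0.10. CHAC1, which degrades glutathione, had 27.9, 33.6 and 36.5 CPM in the pair against 3.14, 3.42 and 3.74 CPM in untreated cells, and ADM2, a secreted peptide of the adrenomedullin family, rose by 3.93 ± 0.16. The 9 transcription factors and phosphatase regulators called were all higher, of 10, whereas the genes of amino acid synthesis and one-carbon metabolism had 8 higher and 1 lower of 11 with a median of 0.29. Amino acid transporters were higher in 10 of 16. SLC7A11, the cystine importer, had 143, 136 and 122 CPM in the pair against 13.1, 11.7 and 10.6 CPM in untreated cells, and its heavy chain SLC3A2 had 1251, 1325 and 1308 CPM in the pair against 341, 356 and 389 CPM in untreated cells.

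Of 27 genes of endoplasmic reticulum chaperones and degradation 15 were higher, 3 lower and 9 not called, with a median of 0.38. HSPA5, the lumenal HSP70 known as BiP, had 1774, 1687 and 1705 CPM in the pair against 747, 724 and 736 CPM in untreated cells and rose by 1.23 ± 0.09 (adjusted p = 1.2e-15). DNAJB9, a co-chaperone of BiP, rose by 2.92 ± 0.17, HERPUD1, a component of the degradation pathway, by 2.05 ± 0.12, the sensor kinase ERN1 by 1.72 ± 0.12 and its target XBP1 by 1.28 ± 0.09. Aminoacyl-tRNA synthetases went apart by compartment and member. In the cytosol 6 were higher and 9 lower of 19, beside 29.6% of all genes higher and 32.5% lower. AARS, the alanine enzyme, changed by 0.86 and DARS, the aspartate enzyme, by -1.18. In mitochondria 14 of 17 were lower, with IARS2, the isoleucine enzyme, at -1.12.

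Of 11 BCL2 family effectors and BH3-only genes, which promote apoptosis, 8 were higher, 2 lower and 1 not called, with a median of 1.05, beside 29.6% of all genes higher. BBC3, which encodes PUMA, had 78.7, 87.1 and 92.6 CPM in the pair against 7.75, 9.02 and 10.2 CPM in untreated cells and rose by 3.27 ± 0.22 (adjusted p = 5.89e-15). HRK had 12.4, 13.1 and 13.7 CPM in the pair against 1.62, 1.74 and 1.19 CPM in untreated cells and rose by 3.10 ± 0.16. BMF rose by 1.60 ± 0.16, BCL2L11, which encodes BIM, by 1.08 ± 0.12, and PMAIP1, which encodes NOXA, by 1.05 ± 0.12. Against the YFSJ libraries in place of untreated ones BMF rose by 0.82. Of the 5 family members that oppose death, MCL1 rose by 0.38 ± 0.08, BCL2L2 changed by -0.39 (by -0.252 with library totals as the scale), BCL2A1 rose by 2.48 ± 0.53 with 1.62, 1.81 and 1.299 CPM in the pair against 0.0980, 0.322 and 0.434 CPM in untreated cells, and BCL2L1 at 80.8, 72.5 and 77.1 CPM in the pair against 77.0, 76.5 and 83.4 CPM in untreated cells did not pass, nor did BCL2. The death receptor gene TNFRSF10B rose by 1.35 ± 0.10. It belongs with CDKN1A, GDF15 and BBC3 to the p53 targets, of which 15 were higher and 1 lower of 24. The antiproliferative gene BTG2 rose by 1.89 ± 0.17 and TP53I3, an oxidoreductase, was lower, with a change of -0.65.

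Immediate early genes were higher in the pair in 19 of 24 and lower in 0. The 3 members of the NR4A family of orphan nuclear receptors were all among them. NR4A1 had 196, 188 and 218 CPM in the pair against 12.99, 13.7 and 16.1 CPM in untreated cells and rose by 3.81 ± 0.19 (adjusted p = 1.99e-19). NR4A2 rose by 2.75 ± 0.18, NR4A3 by 4.56 ± 0.31 and KLF4, a zinc finger factor, by 2.75 ± 0.15. Of 25 inflammatory cytokine and NF-kappaB genes 17 were higher and 2 lower, with a median of 1.57. TNFAIP3, the A20 inhibitor of NF-kappaB, had 77.2, 70.2 and 67.0 CPM in the pair against 9.02, 10.1 and 10.0 CPM in untreated cells and rose by 2.88 ± 0.15 (adjusted p = 2.01e-20). BIRC3, a ligase that restrains cell death, rose by 3.47 ± 0.23, NFKB2, a subunit of the factor itself, by 2.31 ± 0.15, and ICAM1, an adhesion receptor, by 1.77 ± 0.11. Against the YFSJ libraries in place of untreated ones the rise of BIRC3 was 2.00 and that of ICAM1 0.65. CCL2, a monocyte chemokine, was lower, with 1.58, 0.604 and 0.895 CPM in the pair against 4.66, 3.93 and 2.66 CPM in untreated cells.

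The targets of ERK were mostly higher with the pair than without. Of 21 ERK feedback and output genes 14 were higher and 3 lower than in untreated cells, with a median of 0.61. DUSP5, a nuclear ERK phosphatase, had 177, 162 and 159 CPM in the pair against 52.5, 48.6 and 47.6 CPM in untreated cells and rose by 1.74 ± 0.11 (adjusted p = 4.75e-17). SPRY4, a Sprouty inhibitor of receptor signalling, had 25.2, 22.5 and 25.4 CPM in the pair against 8.14, 7.34 and 7.92 CPM in untreated cells and rose by 1.64 ± 0.15. DUSP4 and DUSP7 rose by 0.96 ± 0.12 and 0.89 ± 0.11, and FOSL1, an AP-1 subunit, was lower, with a change of -0.78. Of the EGFR ligands HBEGF rose by 1.81 ± 0.13 and TGFA by 0.78 ± 0.13, while NRG1, a ligand of ERBB3 and ERBB4, changed by -1.13. EGFR itself had 80.0, 77.9 and 72.2 CPM in the pair against 84.4, 84.5 and 81.0 CPM in untreated cells and did not pass, with a change of -0.12 ± 0.17 (adjusted p = 0.546), and ERBB2 did not pass at -0.19. ERBB3 rose by 0.58 ± 0.12, MET changed by -0.46 ± 0.13 (adjusted p = 0.00281) and AXL, a kinase linked to resistance to EGFR inhibitors, by -1.09 ± 0.20 (adjusted p = 1.05e-05). MERTK, a relative of AXL, rose by 2.76 ± 0.20. MYC, a growth factor responsive oncogene, had 2877, 2676 and 2742 CPM in the pair against 1619, 1694 and 1756 CPM in untreated cells and rose by 0.71 ± 0.14, or by 1.67 against the YFSJ libraries, together with MXD1, an antagonist that shares its partner MAX, by 1.85 ± 0.13.

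Genes of protein turnover, respiration and the ribosome were mostly lower, with list medians from -0.56 to -0.31. Among all genes 29.6% were higher and 32.5% lower. Of 34 proteasome subunits and regulators 31 were lower and 1 higher, with a median of -0.53. PSMD1 changed by -1.11 and PSMB2 by -0.77, and the member that rose was NFE2L1, the factor that induces proteasome genes, by 0.79 ± 0.13, or by 0.43 against the YFSJ libraries. Of 27 nuclear-encoded respiratory chain genes 24 were lower and 0 higher, with NDUFS1 of complex I at -1.05 and SDHC of complex II at -1.002. Against the YFSJ libraries in place of untreated ones 15 of the 27 were lower. Of 34 cytosolic ribosomal protein genes 25 were lower and 0 higher, but with library totals as the scale 14 were lower, with a term for the 10 ALB libraries in the fit 16, and against YFSJ 5. Of 25 ribosome biogenesis genes 17 were lower and 2 higher: the nucleolar proteins NCL and NPM1 changed by -0.95 and -0.87 (NPM1 by -0.58 against YFSJ), and UTP20, a processome subunit, by -1.51. Of 28 hypoxia and glycolysis genes 8 were higher and 15 lower. LDHA, lactate dehydrogenase, had 1349, 1140 and 1089 CPM in the pair against 2896, 2567 and 2660 CPM in untreated cells, whereas VEGFA, the endothelial growth factor, rose by 1.42 ± 0.12, ADM by 2.33 ± 0.15 and the glucose transporter SLC2A3 by 1.24 ± 0.08. Against the YFSJ libraries VEGFA rose by 0.60 and SLC2A3 by 0.82.

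Genes of cell shape and matrix moved in both directions within both of their lists. Among all genes 29.6% were higher and 32.5% lower. Of 24 mesenchymal and matrix genes 3 were higher and 14 lower. THBS1, thrombospondin, had 170, 158 and 148 CPM in the pair against 516, 473 and 494 CPM in untreated cells and changed by -1.64 ± 0.16 (adjusted p = 8.07e-12). Tenascin TNC changed by -1.10 while the transcriptional repressors SNAI1 and SNAI2 rose by 0.81 ± 0.17 and 0.72 ± 0.10, and against the YFSJ libraries by 1.27 and 1.13. Of 18 epithelial junction and keratin genes 3 were higher and 9 lower, and with library totals as the scale 6 were higher. The claudin gene CLDN1 had 25.6, 25.1 and 24.2 CPM in the pair against 1.81, 2.32 and 1.57 CPM in untreated cells and rose by 3.72 ± 0.18 (adjusted p = 1.37e-21). Occludin OCLN rose by 1.91 ± 0.15 and CLDN4 by 1.03 ± 0.12, whereas the keratins KRT8 and KRT18 changed by -1.01 and -1.003 (by -0.67 and -0.64 against the YFSJ libraries) and the epithelial factor GRHL2 by -1.32.

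**Figure D2:**
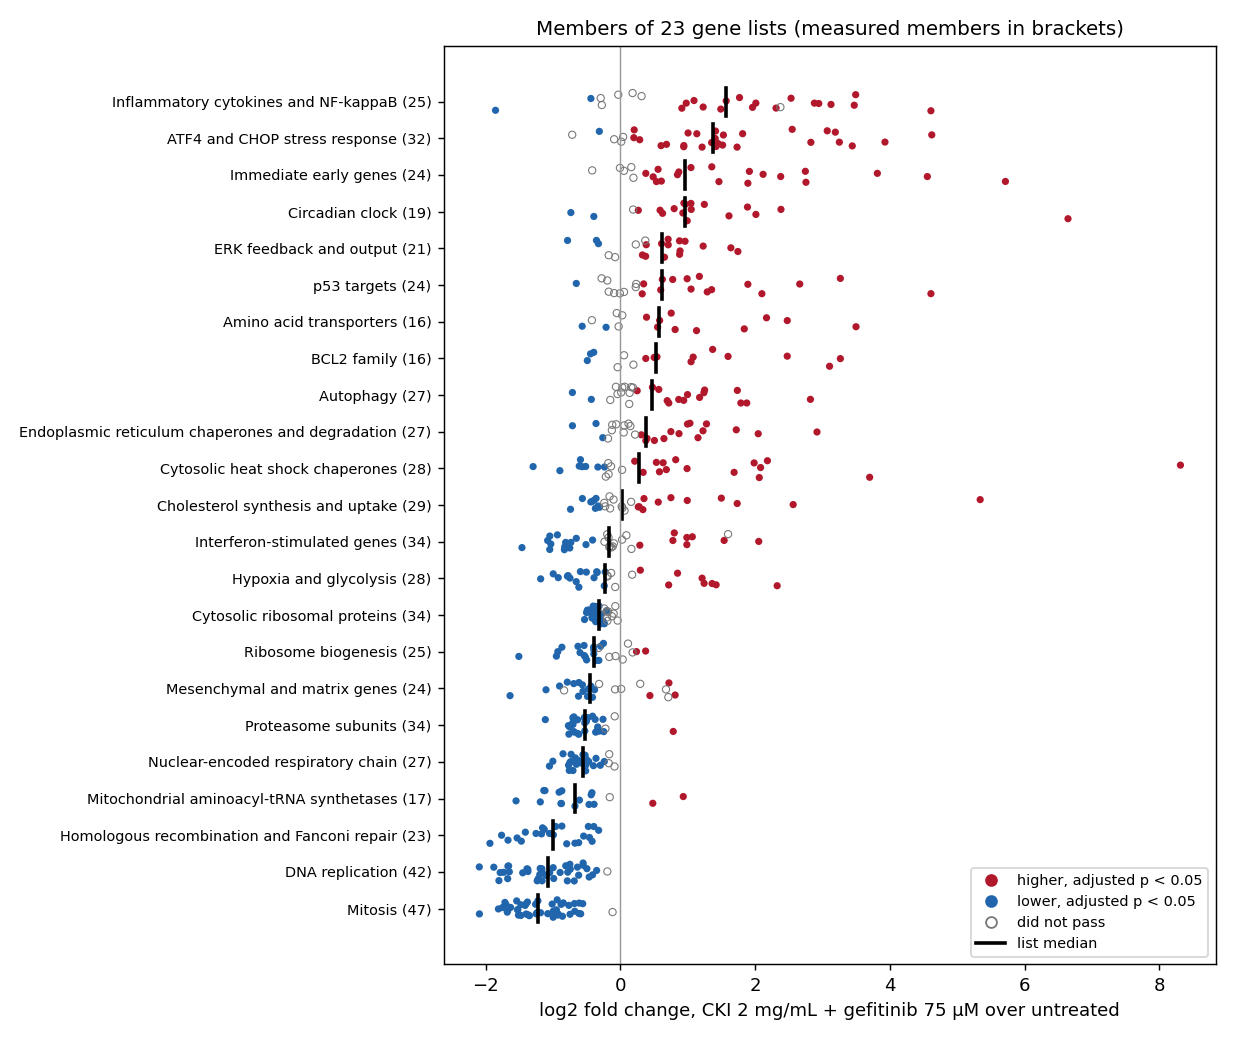
Log2 fold change of the pair over untreated cells for each measured member of 23 gene lists, with the number measured in brackets and the list median as a bar. Nearly every replication, mitosis and recombination gene lies below 0, with medians of -1.08, -1.22 and -0.99, while the inflammatory, ATF4 and immediate early lists have medians of 1.57, 1.38 and 0.96.

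The pair was next set against each of its agents alone, to see which of these differences were already there with 1 of them. Against CKI alone 4760 genes were called (30.1%), 2459 higher (15.6%) and 2301 lower (14.6%). Without pair library 3 this count was 3165. Against gefitinib alone 9190 were called (58.2%), 4549 higher (28.8%) and 4641 lower (29.4%). The departure from additivity is the log2 change in the pair minus the sum of the log2 changes with each agent, and a positive value means that the pair lay above that sum. It was called for 6358 genes (40.3%), positive in 3212 (20.3%) and negative in 3146 (19.9%). With library totals as the scale, the calls against CKI alone split into 2001 higher and 2924 lower, and those of the departure into 2292 positive and 4224 negative. A fit with a term for libraries of over 1000 ALB counts, which only 2 groups of mixed libraries can estimate, called 7913 genes against untreated cells, 2769 against CKI alone, 6911 against gefitinib alone and 4823 for the departure. The comparisons share the pair libraries, and the 2 changes against untreated share those, so their values are set side by side only. The CKI and gefitinib libraries are among the 38 with at most 8 ALB counts, so here too ALB content cannot be told apart from the pair. The genes set apart are left out of the lists here too.

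The cell cycle genes were higher with the pair than with gefitinib alone. Of the 42 replication genes, 7 were higher and 3 lower than with CKI alone (median 0.07), while 36 were higher and 0 lower than with gefitinib alone (median 0.89). Of the 47 mitosis genes, 12 were higher and 1 lower than with CKI alone, while 46 were higher and 1 lower than with gefitinib alone (median 1.27). The departure from additivity was positive and called in all 42 replication genes (median 1.95) and in 46 of 47 mitosis genes (median 2.48). Over all genes 15.6% were higher than with CKI alone, 28.8% were higher than with gefitinib alone and 20.3% had a positive departure. KIF20A had 44.3, 33.4 and 34.2 CPM in the pair, 29.4, 23.3 and 31.1 CPM with CKI alone, 14.2, 15.6 and 14.6 CPM with gefitinib alone and 104, 119.6 and 101.4 CPM in untreated cells. TYMS had 9.64, 6.09 and 9.54 CPM in the pair, 7.50, 6.04 and 7.59 CPM with CKI alone, 3.39, 2.96 and 2.54 CPM with gefitinib alone and 24.9, 28.03 and 26.5 CPM in untreated cells. CCNB1 had 159.8, 138 and 138 CPM in the pair, 149.8, 124 and 144 CPM with CKI alone, 66.1, 64.9 and 65.4 CPM with gefitinib alone and 356, 328 and 358 CPM in untreated cells. In all 3 genes the pair libraries lay above every gefitinib library and below every untreated one, and for TYMS and CCNB1 they overlapped those of CKI alone. CDC6 differed by 1.99 ± 0.11 (adjusted p = 1.87e-19) from gefitinib alone and by 0.40 ± 0.10 from CKI alone.

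**Figure D3:**
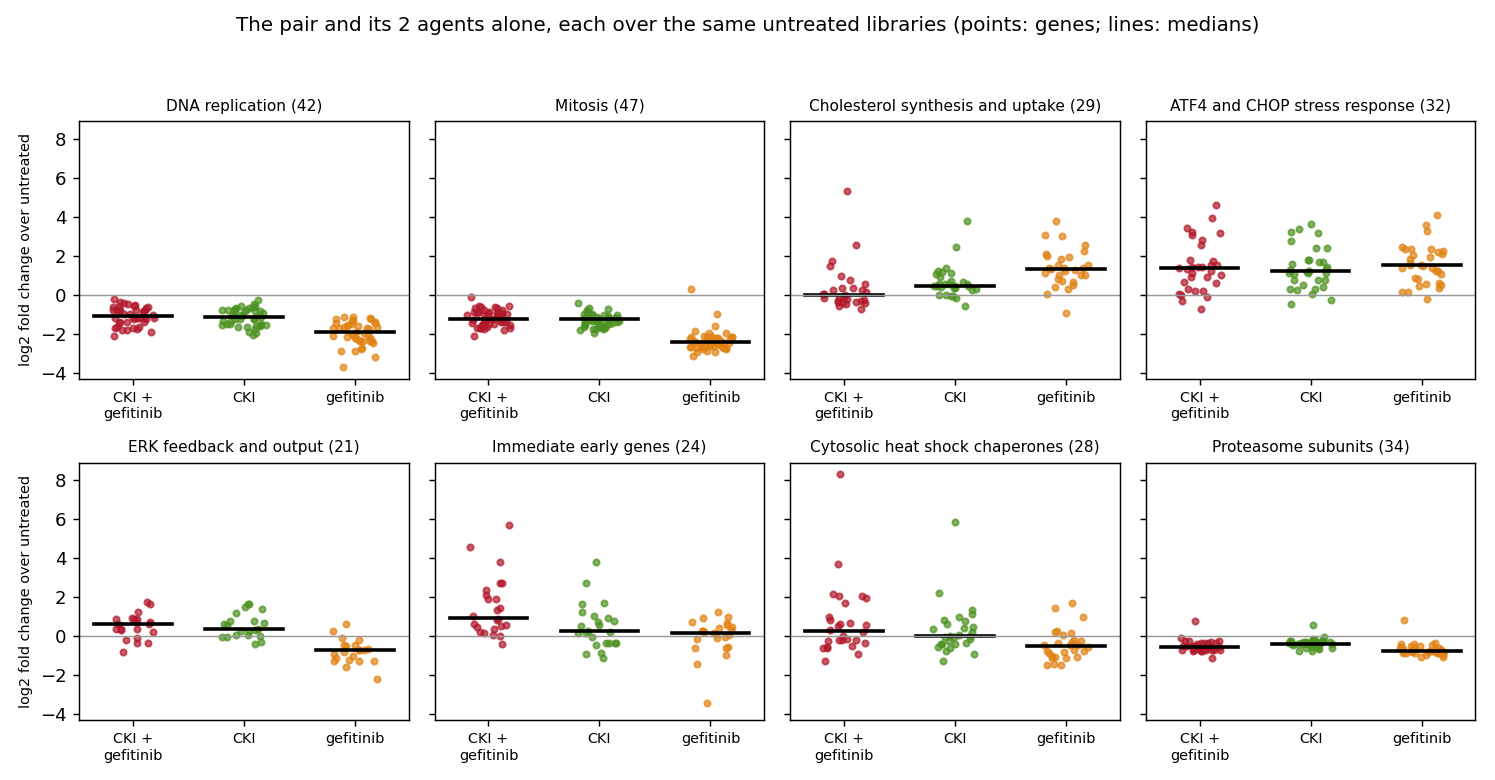
Log2 fold change over untreated cells of each member of 8 gene lists with the pair, CKI alone and gefitinib alone, with list medians as bars; the 3 treatments share the untreated libraries. For mitosis genes the medians are -1.22 with the pair, -1.24 with CKI and -2.41 with gefitinib, and for cholesterol genes 0.02, 0.47 and 1.32.

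Cholesterol synthesis showed the reverse order. Against untreated cells the 29 genes of the list were split, with 11 higher and 9 lower and a median of 0.02, and with library totals as the scale 4 were lower. With the term for ALB libraries 7 were higher. Against gefitinib alone 24 were lower and 3 higher, with a median of -1.29, and against CKI alone 16 were lower and 2 higher. The shares of all genes lower in these comparisons were 29.4% and 14.6%. All 20 enzymes were lower than with gefitinib alone, and the departure from additivity was negative in 19 of them, beside 19.9% of all genes. LSS, lanosterol synthase, had 122, 156 and 154 CPM in the pair, 132, 156 and 131 CPM with CKI alone, 578, 564 and 627 CPM with gefitinib alone and 74.7, 64.9 and 77.6 CPM in untreated cells, and differed by -2.03 ± 0.13 (adjusted p = 3.06e-17) from gefitinib alone. TM7SF2, a sterol reductase, had 9.504, 12.2 and 13.3 CPM in the pair, 19.9, 21.5 and 16.01 CPM with CKI alone, 29.4, 31.4 and 28.2 CPM with gefitinib alone and 3.68, 3.35 and 3.47 CPM in untreated cells. LSS rose by 0.99 ± 0.13 over untreated cells and by 0.64 over the YFSJ libraries. Both genes were higher than in untreated cells and lower than with gefitinib, without overlap. STARD4, a sterol carrier, was lower than in all 3 other groups, with changes of -1.20 against CKI, -2.14 against gefitinib and -0.74 against untreated cells. MYLIP, a ligase that degrades the LDL receptor, was higher than in all 3, by 0.93, 2.44 and 1.499 in the same order. Of 17 fatty acid synthesis genes 14 were lower than with gefitinib alone and 8 lower than in untreated cells. Against untreated cells ELOVL6, an elongase, changed by -1.54 and ACLY, which makes cytosolic acetyl-CoA, by -0.56.

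ERK targets differed from gefitinib alone in every member. All 21 were higher than with gefitinib alone, with a median of 1.18, whereas against CKI alone 5 were higher and 8 lower. Of all genes 28.8% were higher than with gefitinib alone, and 15.6% were higher and 14.6% lower than with CKI alone. SPRY4 had 25.2, 22.5 and 25.4 CPM in the pair, 26.2, 22.5 and 25.7 CPM with CKI alone, 3.75, 4.53 and 4.38 CPM with gefitinib alone and 8.14, 7.34 and 7.92 CPM in untreated cells. DUSP5 had 177, 162 and 159 CPM in the pair, 161, 143 and 161 CPM with CKI alone, 29.7, 30.8 and 30.6 CPM with gefitinib alone and 52.5, 48.6 and 47.6 CPM in untreated cells. Both stood below the untreated level with gefitinib alone and above it with the pair. FOSL1 differed by 1.43 ± 0.16 (adjusted p = 3.25e-10) from gefitinib alone and by -0.41 ± 0.15 (adjusted p = 0.0382) from CKI alone.

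Immediate early genes were higher with the pair than with either agent for the most part, and chaperones were mostly higher than with gefitinib alone. Of 24 immediate early genes 23 were higher than with CKI alone and 0 lower, with a median of 0.90, where 15.6% of all genes were higher. Against gefitinib alone 16 were higher, 1 lower and 7 not called, where 28.8% of all genes were higher. NR4A1 had 196, 188 and 218 CPM in the pair, 35.7, 33.4 and 32.1 CPM with CKI alone, 16.8, 13.6 and 21.6 CPM with gefitinib alone and 12.99, 13.7 and 16.1 CPM in untreated cells, and it rose by 2.57 ± 0.18 (adjusted p = 6.6e-14) over CKI alone, the largest named rise in that comparison. ARC rose by 1.90 ± 0.13 over CKI and 6.28 ± 0.19 over gefitinib, and TNFAIP3 by 1.96 ± 0.14 and 1.71 ± 0.14. Of 28 chaperones 12 were higher and 1 lower than with CKI alone, with 15 not called, and 22 higher and 1 lower than with gefitinib alone. HSPA6 had 134, 109 and 134 CPM with CKI alone and 2.48, 2.56 and 2.36 CPM with gefitinib alone, and the pair exceeded CKI by 2.46 ± 0.13 (adjusted p = 4.71e-19). The gefitinib libraries lay within the range of the untreated ones for this gene. HSPA1A had 27.8, 27.0 and 29.3 CPM with CKI alone and 13.8, 12.5 and 14.6 CPM with gefitinib alone. Its departure from additivity was 1.53 ± 0.19 (adjusted p = 1.14e-08) and that of HSPA6 2.27 ± 0.26 (adjusted p = 1.24e-09).

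The stress response of ATF4 and CHOP was not higher with the pair than the sum of its agents would give. Of its 32 genes 8 were higher and 7 lower than with CKI alone, and 8 were higher and 16 lower than with gefitinib alone. Among all genes 15.6% were higher and 14.6% lower than with CKI alone, and 28.8% and 29.4% than with gefitinib alone. The list medians against untreated cells were 1.38 with the pair, 1.23 with CKI alone and 1.51 with gefitinib alone. The departure from additivity was negative in 26 of 32 members and positive in 0, with a median of -1.36, beside 19.9% of all genes negative. CHAC1 had 27.9, 33.6 and 36.5 CPM in the pair, 30.4, 35.5 and 29.2 CPM with CKI alone and 31.7, 30.7 and 39.4 CPM with gefitinib alone, against 3.14, 3.42 and 3.74 CPM in untreated cells. These 3 treated groups overlapped. CDKN1A had 174, 179 and 186 CPM in the pair, 191, 203 and 183 CPM with CKI alone and 200.2, 198 and 212 CPM with gefitinib alone. The pair overlapped CKI alone, lay below gefitinib alone with a difference of -0.18 ± 0.08 (adjusted p = 0.0389), and its departure was -2.39 ± 0.11. ATF3 was 0.96 ± 0.13 above CKI and 2.67 ± 0.14 above gefitinib, but it too lay below the sum. Its departure was -0.99 ± 0.20 (adjusted p = 0.000115). BBC3 had 78.7, 87.1 and 92.6 CPM in the pair, 27.4, 37.2 and 24.2 CPM with CKI alone, 65.8, 60.1 and 77.8 CPM with gefitinib alone and 7.75, 9.02 and 10.2 CPM in untreated cells, and rose by 1.54 ± 0.20 over CKI while the difference of 0.34 from gefitinib did not pass (adjusted p = 0.128).

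**Figure D4:**
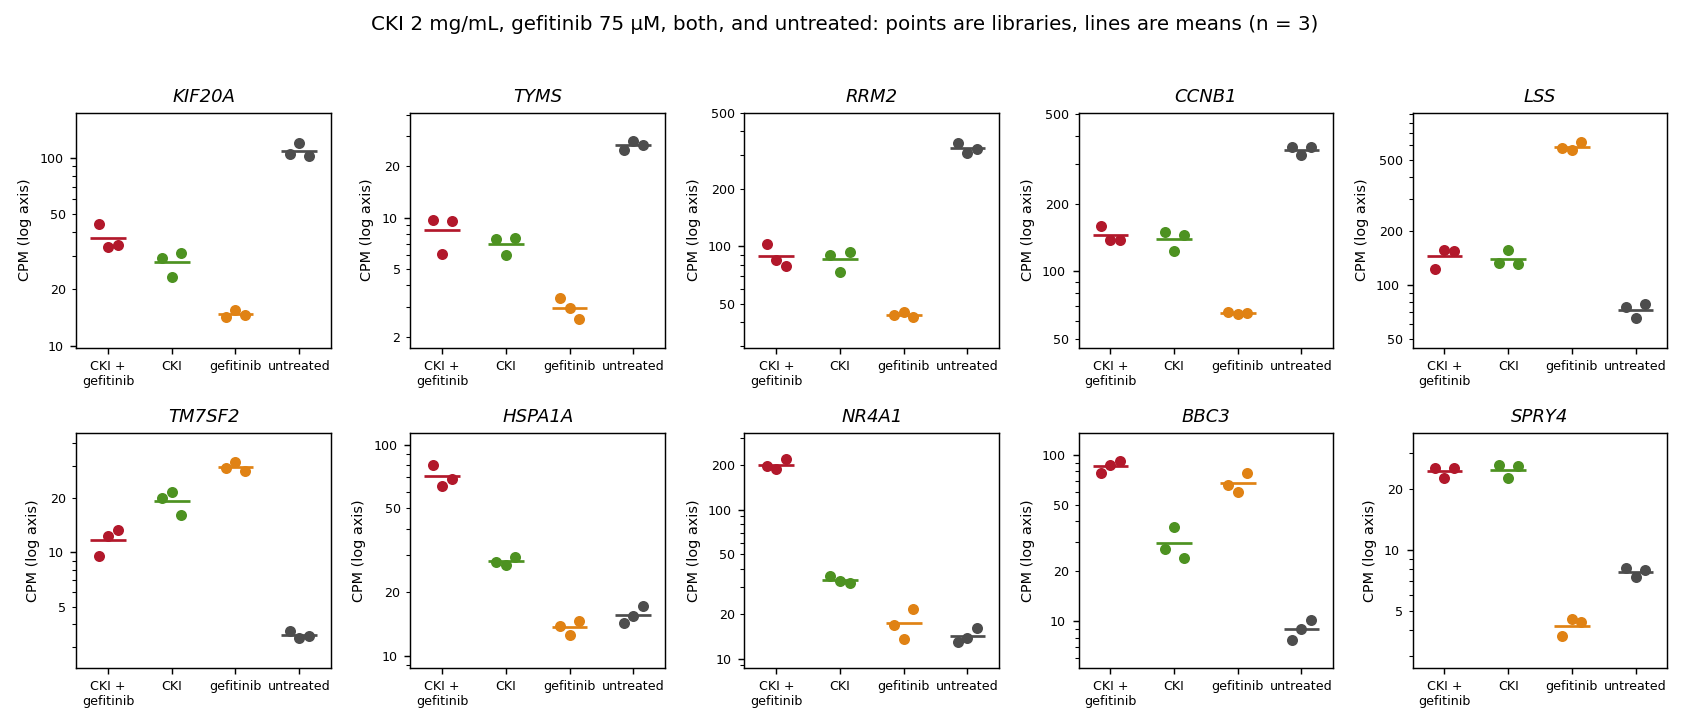
Level of 10 genes in CPM (log axis) in each library of the pair, CKI alone, gefitinib alone and untreated cells, with group means as lines. KIF20A, TYMS, RRM2 and CCNB1 are lowest with gefitinib alone, LSS and TM7SF2 highest with gefitinib alone, and NR4A1 and HSPA1A highest with the pair, where NR4A1 has 196, 188 and 218 CPM.

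Genes outside the lists also separated the pair from its agents. Relative to CKI alone the largest falls among genes that averaged 5 CPM or more, with no overlap between the groups, were in SHANK1, a synaptic scaffold gene, at -1.77, MLLT11 at -1.76, CD163L1, a scavenger receptor, at -1.53, SLC16A13, a monocarboxylate transporter family member, at -1.52, STRA6, the vitamin A uptake receptor, at -1.52, and DGAT2, which makes triglycerides, at -1.44. The rises included MAF, a bZIP factor, by 1.97 and SIGLEC1 by 2.02. By the same rule, relative to gefitinib alone, WISP2, a matricellular gene, had 45.6, 54.1 and 50.5 CPM in the pair against 449, 393 and 464 CPM with gefitinib, a change of -3.12 ± 0.24 (adjusted p = 1.54e-13), and the interferon-induced genes IFI44L and EPSTI1 changed by -2.83 and -3.01. NPR1, a natriuretic peptide receptor, changed by -2.91, NKAIN4 by -2.90 and TMEM86A by -2.71. Rises over gefitinib included PDK4, a kinase that shuts pyruvate out of mitochondria, by 5.24, HES7, a Notch target, by 4.94, NGFR by 5.18 and GADD45G by 4.79. Against untreated cells WISP2 changed by -0.87 ± 0.22 (adjusted p = 0.000997) and STRA6 by -1.41 ± 0.18 (adjusted p = 5.12e-09).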

How the data were processed

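The authors deposited 1 table of raw counts per gene symbol and library, from unstranded paired-end RNA-seq. Reads were trimmed with Trim Galore 0.4.2 and aligned to hg19 with STAR 2.5.3a, per the submitters' processing notes; the counting tool, annotation and strand setting are not given in the sources used here, so overlapping and near-identical genes are uncertain. Of 27978 symbols, edgeR 4.0.16 in R 4.3.3 tested the 15789 that passed filterByExpr over all 48 libraries and 16 groups (minimum count 10, minimum total 15), which hold 99.97% of counts. TMM scaling, 1 mean per group and the robust quasi-likelihood test left 32 residual degrees of freedom (biological coefficient of variation 0.102). P-values were Benjamini-Hochberg adjusted over all genes tested, and a call is an adjusted p under 0.05. SE is the log2 fold change over the square root of F. The test was run on simulated data first.

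Members and gene lists were chosen with earlier results of these data known. Genes are named by a rule: the 12 largest rises and falls against untreated cells and 6 in each other comparison, among called genes averaging 5 CPM or more in the higher group, with no overlap between groups (not asked for the departure from additivity), up to 5 members of each list with the smallest p, small role groups, the member most against its list, and the main receptor kinases. Of the genes the rule gives, those the text turns on are printed. Alternatives were DESeq2 1.42.0, other scalings, filters, thresholds, a replicate block, left-out libraries and a term for ALB libraries. Setting the pair against 2.5 mg/mL YFSJ was chosen after seeing the data.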

Additional observations from a re-analysis of the deposited data

Results flagged for a closer look

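The departure from additivity, which tests whether the effect of gefitinib differs with and without CKI, is given for the 6 largest on each side among called genes that averaged 5 CPM or more in their highest group. It was positive for E2F2, an activator of S-phase genes, by 3.77, for FAM111B by 3.61, for MCM10, a replication initiation factor, by 3.55, for TYMS by 3.43 and for the mitotic kinesins KIF18B and KIF20A by 3.35 and 3.29. It was negative for KLHDC7B at -5.31, ERVV-2, an endogenous retroviral envelope gene, at -4.82, RENBP, a renin-binding epimerase, at -4.12, GCNT3, a mucin glycosyltransferase, at -3.94, ATP6V0D2, a subunit of the lysosomal proton pump, at -3.82 and NPR1 at -3.80. E2F2 had 2.70, 2.52 and 3.31 CPM in the pair, 2.21, 2.30 and 1.499 CPM with CKI alone, 0.544, 0.988 and 1.56 CPM with gefitinib alone and 9.31, 9.34 and 11.3 CPM in untreated cells. KLHDC7B had 17.2, 25.5 and 28.4 CPM in the pair, 16.6, 27.6 and 21.5 CPM with CKI alone, 46.2, 45.0 and 60.5 CPM with gefitinib alone and 0.686, 1.35 and 1.57 CPM in untreated cells. Of the 98 genes set apart, which belong to no comparison of the treatments and of which only some are liver markers, 93 were higher in the pair than in untreated cells. For 90 of the 98 the rule that set them apart fixed this direction. Groups of 3 libraries are too small for a test of single outlying libraries.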

How the results depend on the processing

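Counts of called genes against untreated cells, CKI alone, gefitinib alone and for the departure from additivity were 9802, 4760, 9190 and 6358. A change of at least 2-fold as a further condition gave 2976, 699, 2725 and 2314. Of the 699, 559 were higher, and 467 without the genes set apart. An adjusted p under 0.01 gave 2795 against CKI alone, and the term for ALB libraries 2769 there. Leaving out 1 library at a time gave 8932 to 9454, 3165 to 4630, 8414 to 8562 and 5795 to 6051, and the lowest count against CKI alone came without pair library 3. DESeq2 called 9718, 4709, 9148 and 6465. Scaling by library totals shifted the median of all genes against untreated cells to 0.11 and put 5684 calls higher and 3924 lower; for FOXM1 (0.025), BCL2L1 (0.102) and EGFR (0.022), which were not called, the sign turned. The term for ALB libraries turned the sign of CDC6 (0.023) and BCL2L1 (0.087), also not called. MET missed the threshold with library totals as the scale (adjusted p = 0.0541 in edgeR), and RPS6 missed it against YFSJ (adjusted p = 0.112 in edgeR). EME1 missed it in 4 of 6 fits without 1 library (edgeR adjusted p 0.0526 to 0.0983), with library totals as the scale, with the term for ALB libraries, against YFSJ and at the 0.01 threshold, and DERL3 missed it with that term (edgeR adjusted p = 0.381). Against YFSJ, FOXM1, EGFR and ERBB2 passed, at -0.382, -0.401 and -0.397. Of 168 genes followed, 159 kept direction and side of the threshold under every alternative other than the 2-fold condition. The cause of these changes was not tested. Whether replicate numbers shared between groups pair the libraries cannot be decided from 3 libraries per group. Deviations of same-numbered pair and untreated libraries correlated by 0.227, -0.029 and 0.13. Pair libraries 1 and 3, but not 2, correlated best with their own number. A replicate block gave 9741, 4640, 9132 and 6266. Depth limits genes near 3 counts per library.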

Other observations

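The clock genes were higher in the pair in 16 of 19 and lower in 2, with a median of 0.96, beside 29.6% of all genes higher. PER1, a repressor of the clock, had 111, 112 and 130.4 CPM in the pair against 20.5, 22.0 and 25.3 CPM in untreated cells and rose by 2.38 ± 0.13. NR1D1, the REV-ERB alpha receptor, rose by 1.89 ± 0.11 and NOCT, a rhythmic phosphatase, by 2.01 ± 0.16. Of 27 autophagy genes 15 were higher and 2 lower, with GABARAPL1, a homolog of yeast Atg8, at 76.8, 82.5 and 85.5 CPM in the pair against 13.1, 9.66 and 11.7 CPM in untreated cells. SQSTM1, the p62 cargo receptor, rose by 0.94 ± 0.09 (by 0.56 against the YFSJ libraries) and WIPI1, a phosphoinositide-binding protein, by 1.88 ± 0.12. The lysosome list itself had 7 higher and 4 lower of 25, where 29.6% of all genes were higher and 32.5% lower. With library totals as the scale it had 12 higher. The proton pump list had 7 higher and 1 lower of 17, and 11 higher on that scale. TPP1, a lysosomal peptidase, changed by 0.92 and MCOLN1, a lysosomal calcium channel, by 1.19. Of 12 genes of the Rag GTPase and folliculin complex 5 were higher and 4 lower, 1 lower with library totals as the scale, with RRAGD at 3.81 and FLCN at 1.43.

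Among all genes 29.6% were higher than in untreated cells and 32.5% lower. These shares stand beside the counts against untreated cells of each list here. Antioxidant genes of NRF2 were higher in 13 of 29 and lower in 7, with OSGIN1 at 2.27, the sulfiredoxin SRXN1 at 1.08 and the peroxiredoxin PRDX1 at -0.76. Against CKI alone 19 of the 29 were lower and 2 higher, where 14.6% of all genes were lower. Targets of the aryl hydrocarbon receptor had 4 higher and 2 lower of 9: TIPARP rose by 1.92 ± 0.13 (by 1.07 against the YFSJ libraries) and CYP1A1, a cytochrome P450, had 11.8, 15.4 and 11.4 CPM in the pair against 1.08, 0.580 and 1.25 CPM in untreated cells and 7.73, 6.67 and 7.01 CPM with YFSJ. Interferon-stimulated genes had 8 higher and 14 lower of 34, with the factor IRF1 at 0.99 (0.58 against the YFSJ libraries) and IRF7 at 2.05, and OAS1 and OAS3, which sense double-stranded RNA, at 1.07 and -1.08. Against gefitinib alone 21 of these 34 were lower and 8 higher, where 29.4% of all genes were lower. Targets of YAP and TEAD had 6 higher and 6 lower of 18, a split near the background. Metallothionein and zinc transport genes had 4 higher and 2 lower of 10, and class I presentation genes 3 higher and 0 lower of 9. With the term for ALB libraries the YAP and TEAD list had 3 higher and the class I list 0 higher and 1 lower. Of 8 ABC drug efflux genes 1 was higher and 3 lower, among them the transporter ABCG2 at -0.71 (-1.22 against the YFSJ libraries). Of the markers of other cell types, 9 fibroblast and vessel genes were measured with 2 higher and 2 lower, and 0 higher with the term for ALB libraries or at the 0.01 threshold. Their summed level was 246.7 to 339.4 CPM in the pair and 488.2 to 562.4 CPM in untreated cells. The part of this difference in the matrix genes was not tested. Of 8 lung epithelium markers 6 were higher and 1 lower, and of 9 luminal breast markers 5 were higher and 4 lower.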
